A study of Homo sapiens with 4 samples.

Results

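The replication-dependent histone genes were taken from the annotated H3K4me3 peaks of the series as every gene whose name starts with HIST1H, HIST2H, HIST3H or HIST4H and that had a peak within 1000 bp of its transcription start site (TSS), with all such peaks of a gene summed. This gave 55 genes with 66 peaks, of 16403 genes with a peak in that window. Of these, 44 lie on chromosome 6 (the HIST1 cluster), 10 on chromosome 1 (HIST2) and 1 on chromosome 12 (HIST4H4), and no HIST3H gene met the rule. HCC1428, an established luminal breast adenocarcinoma line without a genetic change made for the study, received 2.5 µM of the KDM5 inhibitor C48 or DMSO, its vehicle, and was collected on day 5. KDM5 enzymes remove methyl groups from lysine 4 of histone H3, and the series asked how blocking them alters H3K4me3, the trimethyl mark of active promoters. There were 2 CUT&Tag libraries per group. The labels call them biological replicates, but no source used here says whether they came from separate cultures, so p-values measure the spread between these libraries, which may be technical.

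Replication-dependent histone genes supply the histones that package newly copied DNA, and they are transcribed mainly in S phase. Most sit in clusters, many as divergent H2A-H2B pairs that share 1 promoter region, and their transcription depends on NPAT, a coactivator that gathers at histone locus bodies. Their mRNAs end in a conserved stem-loop, bound by SLBP, instead of a poly(A) tail. Linker histone H1 binds the DNA between nucleosomes, while H2A, H2B, H3 and H4 form the nucleosome core.

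The libraries held 58.4 and 72.7 M aligned tags for C48, against 88.4 and 64.6 M for DMSO, of which 64.0% to 66.3% lay in peaks. Values are given as scaled tags, meaning tags per 10 M aligned tags after scaling the libraries by their column totals and TMM factors. Of the luminal markers checked, 7 of 8 carried H3K4me3 within 1000 bp (GATA3 did not, and the peak beside it was assigned to its antisense gene), with a summed level of 3367 and 3594 scaled tags for C48 and 5642 to 5650.4 for DMSO. Among basal markers 2 of 6, among blood markers 1 of 6 and among stromal or endothelial markers 1 of 5 had a mean of at least 5 scaled tags. Of the basal markers EGFR and VIM reached that level. KRT5, KRT14, TP63, ACTA2, PTPRC, CD3E and PECAM1 were below it. The summed basal markers reached 482 to 495 scaled tags in C48 and 626 to 650 in DMSO cells. The summed blood markers reached 41.6 to 44.4 scaled tags in C48 and 17.8 to 19.7 in DMSO cells, and the stromal ones 80.5 to 91.4 and 40.7 to 41.7. Their part in the results was not tested.

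The sequence that these genes share is the mRNA stem-loop. In the GENCODE transcripts of the 55 genes, the most common self-complementary stretch of 16 bases (both arms of the stem in capitals) was present in 32 genes, against 0.0702% of all 61228 gene names in the annotation. Within 2 mismatches it was found in 51 of 55. The exceptions were HIST1H4K and the pseudogenes HIST2H2BA, HIST2H2BB and HIST2H3DP1.
Stem-loop: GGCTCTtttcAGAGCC

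Promoter windows (250 bases before to 50 after the TSS) were available in the RefSeq table on GRCh38 for 47 of the 55 genes, and were searched on both strands for 4 motifs, none of which contains another. CCAAT stood in 40 of 47, against 34.6% of 35116 RefSeq promoters, and TATAAA in 33 of 47, against 11.5%. ATTTGCAT, the octamer read by POU2F1 (OCT1), stood in 21 of 47, against 1.77%, and AAACACA, the H1 box, in 4 of 47, against 5.64%. The motifs split by class. The H1 box was in 4 of 4 H1 promoters and in no other class. The octamer was in 13 of 16 H2B and 7 of 9 H2A promoters, in 1 of 10 H3 promoters and in no H1 or H4 promoter. CCAAT was in every H1, H2A, H2B and H3 promoter searched but in only 1 of 8 H4 promoters. A match is a description of these letters and not a binding site.

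The 150 bases just upstream of the TSS are printed for members on which the results turn, 5′ to 3′ on the gene's strand, with matches to the 4 motifs in capitals. HIST1H1B and HIST1H1D are the H1 genes with the largest rise, at chr6:27867589-27867738 (minus strand) and chr6:26234988-26235137 (minus strand).
HIST1H1B: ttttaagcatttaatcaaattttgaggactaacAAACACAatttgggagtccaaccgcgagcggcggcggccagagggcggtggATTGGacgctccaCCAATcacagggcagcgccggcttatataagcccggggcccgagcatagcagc
HIST1H1D: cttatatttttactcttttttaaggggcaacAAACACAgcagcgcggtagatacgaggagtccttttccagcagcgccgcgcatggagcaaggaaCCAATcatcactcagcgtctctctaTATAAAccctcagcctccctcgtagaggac

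HIST1H2AC and HIST1H2BO had the largest falls of the H2A and H2B classes. They lie at chr6:26124022-26124171 (plus strand) and chr6:27893275-27893424 (plus strand). Each shares its upstream region with a divergent partner, whose TSS was 246 bp (H2BC4) and 240 bp (H2AC17) away.
HIST1H2AC: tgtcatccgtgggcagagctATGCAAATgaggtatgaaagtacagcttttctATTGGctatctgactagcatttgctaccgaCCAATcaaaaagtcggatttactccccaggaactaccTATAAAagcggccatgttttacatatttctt
HIST1H2BO: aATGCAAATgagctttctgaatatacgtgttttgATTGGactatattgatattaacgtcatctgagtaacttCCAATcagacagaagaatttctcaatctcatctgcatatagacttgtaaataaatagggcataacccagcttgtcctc

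HIST1H2BA, the testis H2B gene, had the largest rise of any tested member and holds CCAAT, the octamer and TATAAA. Its stretch is chr6:25726627-25726776 (plus strand). The only peak of HIST1H2BA lies outside these bases, 626 bp downstream of the TSS (chr6:25727318-25727753).
HIST1H2BA: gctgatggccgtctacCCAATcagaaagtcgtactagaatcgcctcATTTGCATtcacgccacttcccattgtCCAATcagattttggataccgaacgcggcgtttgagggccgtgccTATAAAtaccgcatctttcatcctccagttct

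Over the 1081 pairs of these stretches, compared base by base without gaps, 2 pairs were near-identical. HIST1H4J and HIST1H4K agreed at 148 of 150 bases, and HIST1H2AI and HIST1H2AJ at 145 of 150. The first pair is at chr6:27823942-27824091 (plus strand) and chr6:27831561-27831710 (minus strand), and the second at chr6:27808023-27808172 (plus strand) and chr6:27814778-27814927 (minus strand). The H3K4me3 values assigned to these genes differed within each pair, but not all of them were read in these bases.
HIST1H4J: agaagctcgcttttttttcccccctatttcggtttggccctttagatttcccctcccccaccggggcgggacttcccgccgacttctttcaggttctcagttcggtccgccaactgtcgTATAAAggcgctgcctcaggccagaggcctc
HIST1H4K: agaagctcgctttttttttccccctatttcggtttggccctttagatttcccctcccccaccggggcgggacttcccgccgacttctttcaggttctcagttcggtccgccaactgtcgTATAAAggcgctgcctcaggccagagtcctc
HIST1H2AI: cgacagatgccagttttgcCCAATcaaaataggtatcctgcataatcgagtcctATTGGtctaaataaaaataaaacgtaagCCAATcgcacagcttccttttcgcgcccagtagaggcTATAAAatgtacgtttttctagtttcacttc
HIST1H2AJ: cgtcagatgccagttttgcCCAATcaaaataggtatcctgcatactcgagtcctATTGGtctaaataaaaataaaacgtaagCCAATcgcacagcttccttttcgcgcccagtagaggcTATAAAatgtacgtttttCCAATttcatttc

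The 55 genes fell into 2 sets by their level, split at a mean of 5 scaled tags, which 14649 of all 16403 genes reached. In 40 genes the mean of the 4 libraries was at least 5 scaled tags, the level needed for a test, and it was 18.5 or more in each. The other 15 had means of at most 4.95, and none of their peaks had been called in any HCC1428 library. Their intervals entered the merged peak set from libraries of other cell lines. These 15 are HIST1H2AG, HIST1H2AJ, HIST1H2BB, HIST1H2BE, HIST1H2BJ, HIST1H2BM, HIST1H3A, HIST1H3C, HIST1H3G, HIST1H3I, HIST1H4D, HIST1H4F, HIST2H2BA, HIST2H3D and HIST2H3DP1. Among the 40, HIST1H2BF and HIST2H2AB also had no peak called in any HCC1428 library, with means of 66.9 and 48.8 scaled tags.

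All 4 H1 genes were in the marked set, as were 8 of 10 H2A, 14 of 19 H2B, 6 of 12 H3 and 8 of 10 H4 genes. Among unmarked promoters TATAAA stood in 9 of 12, the octamer in 6 of 12 and the H1 box in 0 of 12, against 24, 15 and 4 of 35 in the marked set, and the difference was not tested. HIST1H3A was the unmarked gene nearest to the limit, with 5.91 and 9.37 scaled tags in C48 libraries, against 2.41 and 2.10 in DMSO libraries. Both C48 libraries were above both DMSO libraries there. It missed the filter with TMM scaling, but passed it and was called higher per 10 M aligned tags (1.64, adjusted p = 3.77e-05), on the column total (1.68, adjusted p = 2.02e-05) and on ribosomal protein genes (1.97, adjusted p = 7.08e-09), all with limma-trend. The other 14 unmarked genes stayed between 0 and 2.79 scaled tags in every library.

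**Figure D1:**
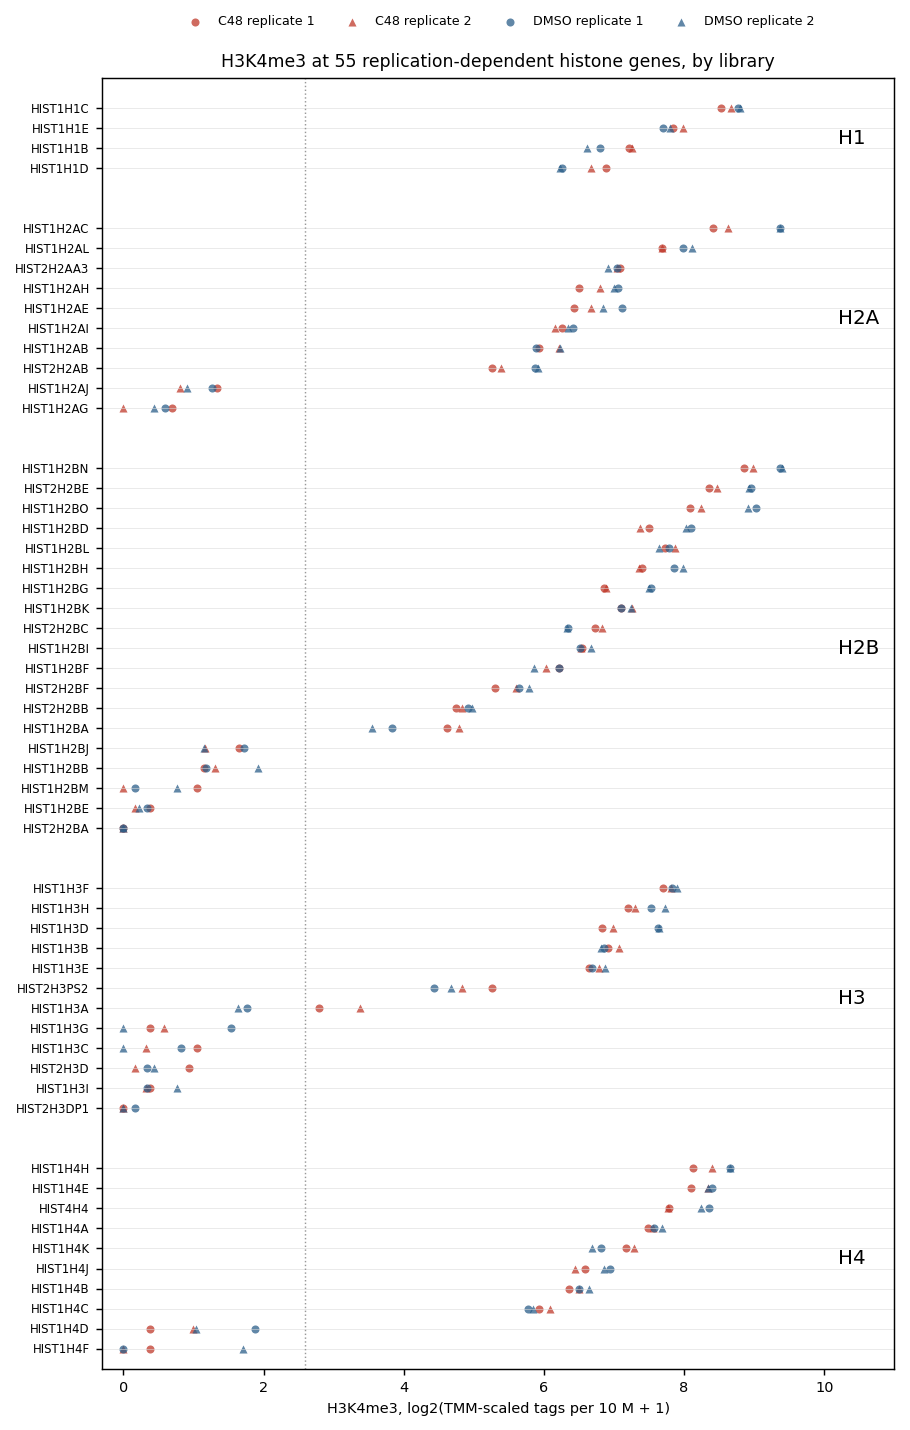
H3K4me3 of the 55 replication-dependent histone genes on a log2(scaled tags per 10 M + 1) scale, by class and, within a class, by mean level, with red for C48 and blue for DMSO libraries and a shape for each replicate. The dotted line is the mean of 5 scaled tags needed for a test; 40 genes lie well above it, while the other 15, among them HIST1H2AJ and HIST1H2BE, lie near 0, with HIST1H3A at 5.91 and 9.37 in C48 libraries closest to the line.

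Divergent partners that were both members were either both marked or both near 0. HIST1H2AE and HIST1H2BG (TSS 233 bp apart), HIST1H2AI and HIST1H2BL (244 bp), HIST1H3D and HIST1H2BF (223 bp) and HIST1H3F and HIST1H2BH (979 bp) were marked. HIST1H2AG and HIST1H2BJ (248 bp) and HIST1H2AJ and HIST1H2BM (245 bp) were near 0 in both groups. HIST1H2AI and HIST1H2AJ, whose upstream bases are near-identical, fell on different sides. HIST1H2AI had 75.2 and 70.7 scaled tags in C48 and 84.7 and 80.4 in DMSO libraries. HIST1H2AJ had 1.51 and 0.743 in C48 and 1.40 and 0.867 in DMSO libraries. The only HIST1H2AI peak (chr6:27808416-27808753) lies downstream of its printed bases, which overlap a peak assigned to HIST1H2BL (chr6:27807515-27808154). A HIST1H2AJ peak (chr6:27814593-27815021) covers the printed bases of that gene. The sources used here do not say how reads that fit both copies were placed.

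Among the marked genes, ordered by their density in C48 cells, the mark was densest at HIST4H4, an H4 gene apart from the clusters, with 512 scaled tags per kb of peak in C48 and 735 in DMSO cells (means of 2). HIST1H2BN followed, with 416 per kb in C48 and 574 in DMSO cells, then HIST1H2AL with 381 and 491 per kb and HIST1H2BH with 373 and 546 per kb. In DMSO cells the order differed, since HIST1H2BH and HIST1H2AC (523 per kb) were above HIST1H2AL. At the low end were HIST1H4C with 46.0 per kb in C48 and 39.8 in DMSO cells, and HIST1H2BA with 57.6 and 27.3 per kb.

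Members were called in both directions under each scaling but that on ribosomal protein genes, where none was called lower. Under all 5 scalings 6 genes were called higher. They were the linker histone genes HIST1H1B and HIST1H1D, the testis gene HIST1H2BA and the H2B pseudogene HIST2H2BC. The others were the H3 gene HIST2H3PS2 and the H4 gene HIST1H4K. The scalings shift all genes by nearly the same amount, so these are the 6 called higher with the lowest scaling, DESeq2 size factors. None fell under every scaling. Falls under 4 of the 5 scalings were found for 8 genes, HIST1H2AC, HIST1H2BO, HIST1H3D, HIST1H2BG, HIST1H2BD, HIST1H2BH, HIST2H2BE and HIST4H4. The exception was the scaling on ribosomal protein genes, under which HIST1H2BH, HIST2H2BE and HIST4H4 were higher and the other 5 passed no threshold. Over all genes tested, 16.3% were higher under all 5 scalings, 38.1% were lower under 4 or 5 and 7.88% were lower under all 5, beside 6, 8 and 0 of the 40 tested members.

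With TMM scaling, limma-trend (Benjamini-Hochberg over 14649 genes, calls at an adjusted p under 0.05) called 7 of the 40 tested members higher and 18 lower in C48, and 15 were not called. Over all tested genes 18.8% were called higher and 64.5% lower. The median log2 fold change of the tested members was -0.15, against -0.37 for all genes. Both C48 libraries were above both DMSO libraries at 10 members and below them at 23, and 7 overlapped, beside 22.4% and 68.7% of all genes. Without a filter on level 6 of 55 were called higher and 14 lower, beside 16.1% and 56.6% of all 16403 genes.

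The direction of the whole set depended on the scaling. HIST1H3A is a 41st tested member with every scaling below other than DESeq2 size factors. The scaling per 10 M aligned tags adds about 0.34 to a TMM log2 fold change, the column total 0.38 and the ribosomal protein genes 0.75, while DESeq2 size factors take away 0.06. Per 10 M aligned tags 21 members were called higher and 9 lower (all genes, 35.8% and 41.2%), on the column total 22 and 8 (38.9% and 38.0%), with DESeq2 size factors 6 and 22 (16.3% and 67.7%), and on ribosomal protein genes 35 and 0 (73.6% and 7.86%, with 1 member lower at an unadjusted p under 0.05). The member median was above the all-gene median each time, at 0.19 against -0.03 per 10 M, and at 0.60 against 0.38 on ribosomal protein genes. The Drosophila spike-in counts that could set an absolute level were not used here. The paper reports a global H3K4me3 gain in C48 cells and that peaks there are undercounted when spike-in scaling is left out. A fall given here is therefore relative to its scaling.

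Expressed as a share of all aligned tags, which is the scaling per 10 M in another form, the sum over the 55 genes was 0.0699% and 0.0742% in C48 libraries, against 0.0703% and 0.0699% in DMSO libraries, and the groups overlapped. In TMM-scaled tags the same sum was 6181 and 6647 in C48 and 7880 and 7874 in DMSO libraries. The split of this sum between classes does not depend on a scaling common to a library. It had differences without overlap: H1 genes took 13.9% and 13.7% of it in C48 libraries, against 10.5% and 10.6% in DMSO libraries. H2A genes took 16.7% and 16.9% in C48 and 19.2% and 19.2% in DMSO libraries, and H2B genes 36.1% and 35.5% in C48 and 38.8% and 38.3% in DMSO libraries. H3 genes took 11.8% and 11.8% in C48 and 10.8% and 11.5% in DMSO libraries. H4 genes took 21.5% and 22.0% in C48 and 20.7% and 20.4% in DMSO libraries.

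**Figure D2:**
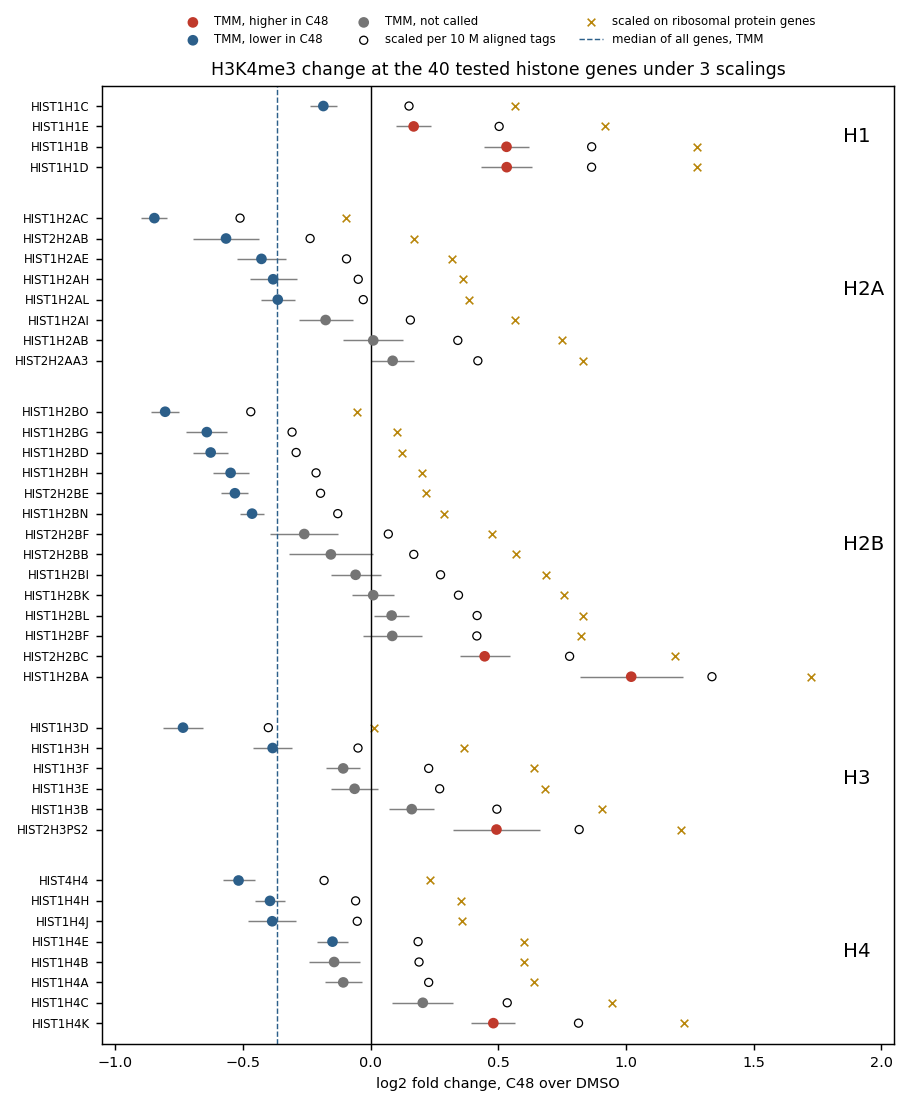
log2 fold change of C48 over DMSO for the 40 tested members by class, with TMM scaling as filled points (red called higher, blue called lower, grey not called, bars 1 SE), per 10 M aligned tags as open circles and on ribosomal protein genes as crosses; the dashed line is the all-gene TMM median of -0.37. Each scaling shifts every gene by nearly the same amount, so HIST1H2BA (1.02 with TMM) stays at the upper end and HIST1H2AC (-0.85) at the lower end.

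The linker histone genes stood highest of the classes, with 3 of 4 called higher, 1 lower and a median of 0.35 with TMM scaling. Of all tested genes 18.8% were called higher and 64.5% lower, with a median of -0.37. HIST1H1D (H1-3) had 117 and 101 scaled tags in C48, against 75.6 and 73.7 in DMSO libraries, a log2 fold change of 0.53 (SE 0.10, adjusted p = 1.16e-06). HIST1H1B (H1-5) had 148 and 152 in C48, against 111 and 96.7 in DMSO libraries, also 0.53 (SE 0.087, adjusted p = 3.89e-08). Both C48 libraries were above both DMSO libraries at these genes, which also rose per 10 M aligned tags, by 0.87 each on the log2 scale.

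HIST1H1C (H1-2) was the strongest H1 gene, with 367 and 407 scaled tags in C48 and 434 and 445 in DMSO libraries. It fell by 0.18 on the log2 scale with TMM scaling (SE 0.053, adjusted p = 0.000979), was higher by 0.15 per 10 M aligned tags (adjusted p = 0.0075), and was not called without C48 replicate 1 (-0.11, adjusted p = 0.0761). HIST1H1E (H1-4) had 229 and 253 in C48 and 206 and 222 in DMSO libraries (0.17, SE 0.067, adjusted p = 0.0173). Its call was lost without C48 replicate 2 (adjusted p = 0.271) or DMSO replicate 1 (adjusted p = 0.189).

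Of 8 tested H2A genes, 5 were called lower with TMM scaling, none was called higher, and the median was -0.37. The share lower and the median are near those of all genes (64.5% and -0.37), of which 18.8% were called higher. At an unadjusted p under 0.05 the number higher was also 0 with limma, and edgeR's quasi-likelihood and the DESeq2 Wald test called 0. HIST1H2AC (H2AC6) had the lowest value of any member: 341 and 393 scaled tags in C48, against 660.4 and 657 in DMSO libraries, a log2 fold change of -0.85 (SE 0.051, adjusted p = 5.27e-29). It was also the strongest H2A gene, its C48 libraries lay far below its DMSO libraries, and 8.74% of all tested genes had a lower value. Its peak spans the divergent promoter shared with HIST1H2BC, a gene to which no peak was assigned, so the value belongs to both.

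The other called H2A genes were HIST2H2AB, HIST1H2AE, HIST1H2AH and HIST1H2AL, with -0.57 to -0.36 with TMM scaling. They passed no threshold per 10 M aligned tags and were between 0.17 and 0.39 on ribosomal protein genes. HIST1H2AI (-0.18), HIST1H2AB (0.01) and HIST2H2AA3 (0.09) were not called.

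H2B was the largest class, with 14 tested genes. Of these 6 were called lower and 2 higher with TMM scaling (all genes, 64.5% and 18.8%). HIST1H2BN (H2BC15) carried the most H3K4me3 of the class, 461 and 507 scaled tags in C48 and 659 and 675 in DMSO libraries (-0.46, SE 0.047, adjusted p = 1.1e-15). It was still lower per 10 M aligned tags (-0.13, adjusted p = 0.00933) but not on the column total (-0.09, adjusted p = 0.0616), and was higher on ribosomal protein genes (0.29). HIST1H2BO (H2BC17) had 271 and 301 in C48 and 521 and 478 in DMSO libraries (-0.80, SE 0.055, adjusted p = 4.34e-25). HIST1H2BG (-0.64), HIST1H2BD (-0.63) and HIST1H2BH (-0.55) were also called lower, and in each the C48 libraries lay below the DMSO libraries.

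HIST1H2BA (H2BC1), known for its expression in testis, had the largest rise. It carried little H3K4me3, 23.5 and 26.7 scaled tags in C48 against 13.2 and 10.6 in DMSO libraries, and the libraries did not overlap (1.02, SE 0.202, adjusted p = 3.35e-06), and 96.3% of all tested genes had a lower value. This was read at a peak 626 bp downstream of the TSS. Of all peaks at 500 to 1000 bp 37.8% were called higher, as were 50.5% of all genes with 5 to 50 scaled tags. HIST1H2BF, HIST1H2BI, HIST1H2BK and HIST1H2BL lay between -0.06 and 0.08 and were not called, though all 4 were called higher per 10 M aligned tags (0.27 to 0.42).

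Of 6 tested H3 genes 2 were called lower and 1 higher (all genes, 64.5% and 18.8%). HIST1H3F (H3C7), the strongest, had 206 and 223 scaled tags in C48 and 225 and 237 in DMSO libraries and was not called (-0.11, SE 0.067, adjusted p = 0.131). HIST1H3D (H3C4) had 113 and 125 in C48 against 197 and 199 in DMSO libraries (-0.73, SE 0.079, adjusted p = 1.59e-14). Its TSS lies 223 bp from that of HIST1H2BF, whose own peak had 73.2 and 64.2 in C48 and 72.9 and 57.2 in DMSO libraries (0.08, adjusted p = 0.496). HIST1H3H was called lower (-0.38), and HIST1H3B (0.16) and HIST1H3E (-0.06) were not called.

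Of 8 tested H4 genes 4 were called lower and 1 higher (all genes, 64.5% and 18.8%). HIST1H4H (H4C8), the strongest, had 278 and 337 scaled tags in C48 and 402 and 404 in DMSO libraries (-0.39, SE 0.058, adjusted p = 2.47e-09), and was not called per 10 M aligned tags (-0.06, adjusted p = 0.373). HIST1H4E was called lower (-0.15, adjusted p = 0.0189) although its libraries overlapped, with 274 and 324 in C48 and 338 and 324 in DMSO libraries. It was higher per 10 M aligned tags (0.19, adjusted p = 0.00602) and was not called without C48 replicate 1 (adjusted p = 0.695) or DMSO replicate 1 (adjusted p = 0.137).

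HIST1H4J and HIST1H4K, the pair with 148 of 150 upstream bases in common, moved in opposite directions with TMM scaling. HIST1H4K (H4C12) had 143 and 155 scaled tags in C48 against 112 and 102 in DMSO libraries (0.48, SE 0.086, adjusted p = 4.17e-07). HIST1H4J (H4C11) had 94.9 and 85.6 in C48 against 122 and 115 in DMSO libraries (-0.39, SE 0.094, adjusted p = 0.00013), a fall that was not called per 10 M aligned tags (-0.05) and that became 0.36 on ribosomal protein genes. Neither value was read in the printed bases: the only peak of each lies downstream, centred 374 bp from the TSS of HIST1H4J (chr6:27824297-27824701) and 512 bp from that of HIST1H4K (chr6:27830723-27831308), both annotated at the transcript end. The sources used here do not say how reads that fit both upstream copies were placed.

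Off chromosome 6, HIST4H4 (H4C16) had 219 and 218 scaled tags in C48 against 325 and 301 in DMSO libraries (-0.52, SE 0.063, adjusted p = 2.11e-12). HIST2H2BE (H2BC21), whose mRNA is also known in polyadenylated form, had 326 and 352 in C48 against 497 and 484 in DMSO libraries (-0.53, SE 0.053, adjusted p = 3.14e-16). Both were also lower per 10 M aligned tags (-0.18 and -0.20) but higher on ribosomal protein genes (0.23 and 0.22). HIST2H2AB had 37.3 and 41.0 in C48 against 57.3 and 59.4 in DMSO libraries (-0.57, SE 0.131, adjusted p = 5.51e-05), and was not called per 10 M aligned tags (adjusted p = 0.0924).

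Most of the remaining HIST2 genes lie in duplicated sequence. HIST2H2BC had 105 and 113 scaled tags in C48 against 80.0 and 79.1 in DMSO libraries (0.45, SE 0.098, adjusted p = 2.28e-05), and 29.0% of its peak length had a copy of at least 98% identity elsewhere in hg38. For HIST2H3PS2, HIST2H2BF, HIST2H2BB, HIST2H3D and HIST2H2BA this was 100%, so their values are uncertain and may hold reads of the copies, or lack their own. HIST2H3PS2 had 37.3 and 27.5 in C48 against 20.7 and 24.4 in DMSO libraries (0.49, SE 0.170, adjusted p = 0.00611), and was not called without C48 replicate 1 (adjusted p = 0.261) or DMSO replicate 1 (adjusted p = 0.0553).

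HIST2H2BF had 38.5 and 47.7 scaled tags in C48 and 49.1 and 54.0 in DMSO libraries (-0.26, SE 0.133, adjusted p = 0.0648). HIST2H2BB, a pseudogene, had 25.8 and 27.5 in C48 and 29.2 and 30.3 in DMSO libraries (-0.16, SE 0.163, adjusted p = 0.372). HIST2H2AA3 had 135 and 130.5 in C48 and 130.2 and 119.8 in DMSO libraries (0.09, SE 0.085, adjusted p = 0.339), from a peak 870 bp upstream of its TSS. Leaving out the 8 members with copies over more than 10% of their peak length, 5 of 34 tested members were called higher and 17 lower, with a median of -0.16.

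From 100 scaled tags up, the member medians with TMM scaling were close to those of all genes at the same level; below 50 scaled tags they were not. The 4 members with a mean of 400 to 800 scaled tags were all called lower (88.8% of all genes in that range), and their median was -0.50 against -0.54 for all genes. At 200 to 400 scaled tags 7 of 10 were called lower (all genes, 77.3%), with a median of -0.38 against -0.42. At 100 to 200 scaled tags 6 of 13 were called lower (52.6%), with a median of -0.11 against -0.20. At 50 to 100 scaled tags 0 of 8 were called lower and 2 higher (28.6% and 38.9%), with a median of 0.05 against 0.07. Below 50 scaled tags 1 of 5 was called lower and 2 higher (10.7% and 50.5%), with a median of -0.16 against 0.41 for all genes. HIST2H2BF, HIST2H2BB and HIST2H3PS2, with copies over their whole peak length, are among these 5 members. The 5 had means of 18.5 to 48.8 scaled tags, whereas the range for all genes began at 5. The 3149 genes within the middle range of member levels (91.2 to 224 scaled tags) had a median of -0.21, against -0.15 for the members. Of the 40 members 23 lay between the quartiles of all genes at their level, 10 above and 7 below. Those above were all 4 H1 genes, HIST1H2BA, HIST1H2BL, HIST1H3B, HIST1H3F, HIST1H4E and HIST1H4K. Those below were HIST1H2AC, HIST2H2AB, HIST1H2BO, HIST1H2BG, HIST2H2BF, HIST2H2BB and HIST1H3D. This placing uses TMM values for members and all genes alike, so a common shift leaves it nearly as it is.

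**Figure D3:**
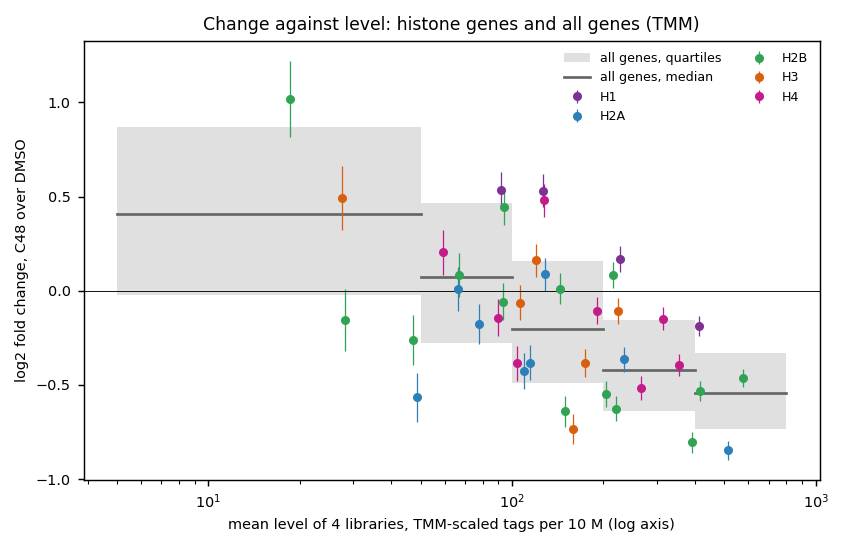
log2 fold change of C48 over DMSO (TMM scaling, bars 1 SE) against the mean of the 4 libraries on a log axis for the 40 tested members, coloured by class, over the median (line) and quartiles (grey) of all genes at that level. The all-gene median goes down from 0.41 under 50 to -0.54 at 400 to 800 scaled tags, and 23 of 40 members lie in the grey band; the 4 H1 genes and HIST1H4K are among the 10 above it, and HIST1H2AC, HIST1H2BO, HIST1H2BG and HIST1H3D among the 7 below it.

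With TMM scaling, most single peaks called lower lay near the start site and most called higher lay further out. Over all 43320 tested peaks 36.8% were called higher and 34.6% lower. Of the 46 tested member peaks 10 were called higher and 19 lower. Within 500 bp of the TSS, 3 of 33 tested histone gene peaks were called higher and 17 lower (all peaks at that distance, 17.7% and 61.7%), with a median of -0.27. At 500 to 1000 bp, 7 of 13 were called higher and 2 lower (37.8% and 34.3%), with a median of 0.17. Distances are to the peak centre, and the wide peaks of HIST1H1C and HIST1H1E in this band also cover the TSS. At 1000 to 2000 bp, outside the window of the rule, 9 of 16 were called higher and 3 lower (65.4% and 15.4%), with a median of 0.47. The all-peak medians at the 3 distances were -0.38, 0.05 and 0.64. With ribosomal protein scaling the histone gene medians were 0.48, 0.92 and 1.21, so the order held while the sign near the TSS turned.

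At 3 genes, with TMM scaling, 1 peak was called lower and another higher. At HIST1H1C the peak centred at 856 bp also covers the TSS. It had 367 and 407 scaled tags in C48 and 434 and 445 in DMSO libraries (-0.18, adjusted p = 0.00202). The HIST1H1C peak at 1993 bp had 35.5 and 36.7 in C48 against 18.5 and 16.6 in DMSO libraries (1.003, adjusted p = 4.69e-07). At HIST1H4H the peak at 178 bp was lower (-0.39, adjusted p = 6.98e-08) and the peak at 1530 bp higher (0.32, adjusted p = 0.00942). At HIST1H4E the peak at 192 bp upstream had 176 and 211 in C48 and 228 and 236 in DMSO libraries (-0.27, adjusted p = 0.00085). Its peak at 1845 bp had 46.7 and 44.5 in C48 against 23.0 and 19.5 in DMSO libraries (1.07, adjusted p = 1.23e-08). At HIST2H2BF, HIST1H2BL, HIST1H4C, HIST1H3B and HIST1H2BI a called rise lay beside a near peak that was not called. At HIST1H4C, HIST1H3B and HIST1H2BI it was at weak peaks 524, 651 and 1189 bp from the TSS (0.99, 0.63 and 0.72). At HIST2H2BF the peak 124 bp from the TSS had 38.5 and 47.7 scaled tags in C48 and 49.1 and 54.0 in DMSO libraries and was not called (-0.26, adjusted p = 0.0708), whereas the peak at 1091 bp had 64.7 and 56.1 in C48 against 22.1 and 18.5 in DMSO libraries (1.53, SE 0.148, adjusted p = 4.53e-14). At HIST1H2BL the peak at 637 bp rose (0.77, adjusted p = 4.91e-06) and the one at 97 bp was not called (-0.06, adjusted p = 0.455).

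HIST1H2AC, HIST1H2BO and HIST4H4 were lower at both positions. Their peaks at 1998, 1035 and 1274 bp had log2 fold changes of -0.33, -0.63 and -0.35, against -0.85, -0.80 and -0.52 near the TSS. At HIST2H2BE the TSS peak changed by -0.70 and the peak 886 bp downstream, in the 3′ untranslated region, by -0.20.

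The ratio of the signal at 1000 to 2000 bp to that within 500 bp does not depend on scaling and could be formed for 11 histone genes. It was above both DMSO libraries in both C48 libraries at 8 of them and overlapped at 3. Over all 2257 genes with both kinds of peak it was above at 85.6%. The median difference was 0.51 on the log2 scale, against 1.11 for all genes. For HIST1H4E the ratio was 0.265 and 0.211 in C48 and 0.1005 and 0.0827 in DMSO libraries, and for HIST2H2BF it was 1.68 and 1.18 in C48 and 0.4496 and 0.342 in DMSO libraries.

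**Figure D4:**
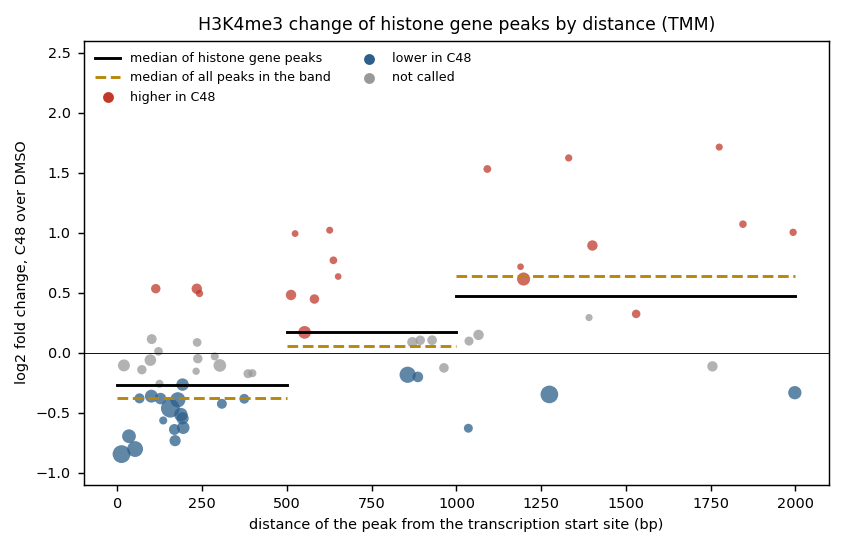
log2 fold change of C48 over DMSO (TMM scaling) for each tested histone gene peak against its distance from the TSS in bp, coloured by call and sized by mean level, with the median of histone gene peaks (black) and of all peaks (dashed) in each distance band. The histone gene medians are -0.27 within 500 bp, 0.17 at 500 to 1000 bp and 0.47 at 1000 to 2000 bp, and the all-peak medians -0.38, 0.05 and 0.64; scaling on ribosomal protein genes moves the first histone median to 0.48.

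Genes that handle these histones and their mRNAs were mostly lower with TMM scaling, beside 64.5% of all genes, and 77.3% and 88.8% of those with 200 to 400 and 400 to 800 scaled tags; a difference from the members was not tested. Of 30 listed factors for histone gene transcription and mRNA 3′ end formation, 24 were tested, of which 20 were called lower and 2 higher, with a median of -0.52. NPAT had 147 and 148 scaled tags in C48 against 216 and 208 in DMSO libraries (-0.52, adjusted p = 5.09e-10), and SLBP 672 and 747 against 954 and 965 (-0.44, adjusted p = 1.23e-16). Per 10 M aligned tags both were still called lower (-0.19 and -0.10), but on ribosomal protein genes they were higher (0.23 and 0.31). The smallest p-values of the list belonged to YY1, a zinc finger transcription factor, at -1.32, POU2F1 at -0.97 and CCNE1, the cyclin that activates CDK2 at the start of S phase, at -0.85. These 3 were also lower per 10 M aligned tags (-0.98, -0.64 and -0.52) and on ribosomal protein genes (-0.56, -0.22 and -0.10). CASP8AP2 was not analysed here. ZNF473 and E2F1 were the 2 called higher.

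Replication-independent histone genes, whose products are deposited outside S phase or replace canonical histones, were all lower with TMM scaling: of 27 listed, 10 were tested and all 10 were called lower, with a median of -0.56. H2AFX had 563 and 551 scaled tags in C48 against 1036 and 1022 in DMSO libraries (-0.88), H3F3B 356 and 365 against 743 and 705 (-1.003) and H2AFV 400.3 and 402 against 742 and 736 (-0.88), with adjusted p-values of 5.06e-36, 1.01e-35 and 1.34e-32. These 3 kept that direction on ribosomal protein genes (-0.13, -0.25 and -0.13), while the list's median turned to 0.19. The difference between these genes and the replication-dependent ones was not tested.

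Histone chaperones (22 listed) had 16 of 19 tested genes called lower and 1, MCM2, higher (median -0.44); the smallest p-values were those of NAP1L1 (-0.75), NPM1 (-0.84) and NASP (-0.80). Cell cycle and replication genes (30 listed) had 21 of 29 called lower and 2 higher (median -0.42). Their smallest p-values were at POLE (-0.93), MKI67 (-0.96) and CCNE1. The lists share genes: the 2 called higher here were MCM2 and E2F1, both already given above, as was CCNE1. Of 71 tested ribosomal protein genes 70 were called lower and none higher with TMM scaling (median -0.75, and 0 higher at an unadjusted p or with edgeR or DESeq2), among them RPL7 (-1.07), RPS21 (-0.75) and RPS2 (-1.16). Per 10 M aligned tags the medians of the chaperone, cell cycle and ribosomal protein lists were -0.10, -0.09 and -0.42.

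The 20 tested non-histone genes that lie between the HIST1 genes on chromosome 6 had 12 called lower and 5 higher, with a median of -0.28 with TMM scaling and 0.05 per 10 M aligned tags. ZNF184 had 462 and 490.2 scaled tags in C48 against 783 and 735 in DMSO libraries (-0.67), HMGN4 405 and 408 against 571 and 591 (-0.51) and HCG11 131 and 160.3 against 252 and 247 (-0.78). The 32 tested HIST1 genes around them had 15 called lower and 5 higher, with a median of -0.15. For all genes the shares were 64.5% lower and 18.8% higher, with a median of -0.37. Of the 5 histone genes outside the name rule, 1 had a peak in the window and it was too weak to test.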

How the data were processed

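H3K4me3 was profiled by CUT&Tag in 4 HCC1428 libraries, 2 C48 and 2 DMSO, grouped and matched to columns by GEO titles and descriptions. Per the submitters' notes the authors used Bowtie2 2.3.4.1 and hg38, called peaks per library with HOMER and merged them over several cell lines (110018 peaks, 45692 of them called in HCC1428). The deposited signal is HOMER tags per 10 M aligned tags, without spike-in scaling. 100% of values were whole tags within 0.1 tags, and 61 to 5207 tags per library lay behind each tested member. HOMER gave each peak to its nearest TSS, so a promoter shared by divergent genes counts for 1 of them. The deposited repeat table holds counts per repeat and was not used.

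Peaks within 1000 bp of a TSS were summed per gene, scaled by column total and TMM factor, and tested with limma-trend (limma 3.58.1, edgeR 4.0.16, R 4.3.3) on log2(value + 1) where the mean was at least 5, which understates changes of low genes. In place of the study's spike-in-scaled test, this uses a log-scale test because the deposited values are normalized. TMM takes most peaks as unchanged. The test was also run on simulated data with few changed genes or peaks, in both directions, and no common shift. That simulation cannot show how the calls behave under a global gain. Alternatives were 4 scalings, 2 pseudocounts, 2 filters, other windows and peak choices, each library left out, the replicate block, and the edgeR quasi-likelihood and DESeq2 1.42.0 Wald tests on the recovered tags. Sequences come from RefSeq (GRCh38.p14, by gene ID, all 55 matched) and GENCODE transcripts, and copies from BLAST of peaks against hg38. Tables were made with Python and pandas.

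Members and gene lists were chosen with earlier results of these data known. Any member could be named; full values are given, in each class, for the strongest, the largest called rise and the largest called fall, for all members off chromosome 6, for up to 3 genes with the smallest p per list, and for NPAT and SLBP. HIST1H2BF, HIST1H3A, HIST1H4E, HIST1H4J, HIST1H1B, HIST1H1E, HIST1H2AI and HIST1H2AJ were added after their values were seen.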

Additional observations from a re-analysis of the deposited data

How the results depend on the processing

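Scaling decided the direction of the set. Per 10 M aligned tags, by column total and by ribosomal protein genes, 21, 22 and 35 members were called higher and 9, 8 and 0 lower, against 7 and 18 with TMM factors, and the median was 0.19, 0.23 and 0.60 against -0.15. With DESeq2 size factors and with the DESeq2 Wald test it was -0.215 and -0.215. For single peaks the 3 scalings called 24, 26 and 40 higher and 9, 8 and 0 lower, against 10 and 19, with medians of 0.19, 0.23 and 0.60 against -0.15, and both DESeq2 settings gave -0.21. Without a filter 5 peaks were called higher and 11 lower. Peaks within 500 bp called 3 genes higher with a median of -0.26, and promoter-TSS peaks alone called 4 higher and 10 lower of 22. Leaving out 1 library gave 5 to 7 genes higher, 16 to 19 lower and a median of -0.207 to -0.0903, and 8 to 9 peaks higher, 15 to 20 lower and -0.193 to -0.0727. Of 25 called genes 4 lost the call when 1 library was left out: HIST1H1C, HIST1H1E, HIST2H3PS2 and HIST1H4E.

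Of the 40 tested members 10 turned their sign per 10 M aligned tags, 11 on the column total, 2 near 0 (HIST1H2AB and HIST1H2BK) with DESeq2 size factors and 24 on ribosomal protein genes. Among the genes given in full by the naming rule these were, per 10 M aligned tags and on the column total, HIST1H1C (0.15 and 0.19), HIST1H3F (0.23 and 0.27), HIST2H2BF (0.0695 and 0.11) and HIST2H2BB (0.17 and 0.21). On ribosomal protein genes these 4 gave 0.57, 0.64, 0.48 and 0.57, and HIST1H2BN 0.29, HIST1H3D 0.0126, HIST1H4H 0.36, HIST4H4 0.23, HIST2H2AB 0.17, HIST2H2BE 0.22, RPS21 0.00499, NAP1L1 0.0012, ZNF184 0.0783, HMGN4 0.24, NPAT 0.23 and SLBP 0.31 turned too. HIST2H2BF also turned with peaks within 2000 bp (0.52). The other members that turned per 10 M and on the column total were HIST1H4E, HIST1H2AI, HIST1H2BI, HIST1H3E, HIST1H4A and HIST1H4B, with HIST1H2AL on the column total alone; on ribosomal protein genes these 7 turned too, as did HIST1H4J, HIST1H2BG, HIST1H2BD, HIST1H2BH, HIST1H2AE, HIST1H2AH and HIST1H3H. These turns follow from the added constant or, for HIST2H2BF, from the added flank peak.

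Replicate numbers did not pair the libraries (correlation of their deviations -0.04), and with the replicate block 7 genes were called higher and 18 lower and 10 and 19 peaks, with no call of a named gene changed. Of the 15 unmarked genes 14 had at most 21 tags in a library and lay below the level needed for a test. Whether depth, the placing of reads at copies or a lack of the mark lies behind this was not tested. The other unmarked gene, HIST1H3A, was called higher with 3 of 5 scalings.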

Other observations

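Of the 58 genes with a HIST1H to HIST4H name, 3 had peaks only beyond 1000 bp. HIST1H2AK, the divergent partner of HIST1H2BN (H2AC15, TSS 194 bp apart), had a peak 1401 bp downstream of its TSS, at chr6:27836705-27837172, with 158 and 174 scaled tags in C48 against 86.2 and 91.2 in DMSO libraries (0.89, SE 0.086, adjusted p = 3.64e-14). The shared promoter peak, assigned to HIST1H2BN, was lower in C48 with TMM scaling (-0.46) and higher on ribosomal protein genes (0.29). HIST1H2AA had a peak at 5893 bp with 22.0 and 24.8 scaled tags in C48 and 15.0 and 20.9 in DMSO libraries, which was not called (adjusted p = 0.069). For HIST1H1A the nearest peak lay 24985 bp away.

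Peaks assigned to histone genes beyond 2000 bp, with those of the 3 genes above, numbered 37. With TMM scaling 6 of the 24 tested were called higher and 8 lower (all peaks, 36.8% and 34.6%). The median log2 fold change of the 24 was 0.07. The largest rises were at weak peaks: 2697 bp from HIST1H1C, with 9.55 and 8.13 scaled tags in C48 against 1.39 and 1.40 in DMSO libraries (2.04), and 35691 bp from HIST1H4H, with 7.27 and 10.1 in C48 against 2.41 and 1.40 in DMSO libraries (1.75). HIST1H4J had a stronger one at 2289 bp, with 90.8 and 96.0 in C48 against 50.2 and 51.4 in DMSO libraries (0.86). These peaks were chosen after their values were seen.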
